A study of Homo sapiens with 2 samples.

Results

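The genes described here are 10 genes of the ATF4 and unfolded protein response (ATF4, DDIT3, ASNS, TRIB3, PSAT1, SESN2, DDIT4, PPP1R15A, XBP1 and HERPUD1), out of 18833 genes with a symbol on the arrays. They were chosen by name, with earlier results of these data known. Every transcript probe bearing one of the 10 names was kept, which gave 14 probes, with 2 probes for each of 4 genes and 1 for each of the other 6. Expression was measured on 2 one-color oligonucleotide arrays of Y79, a human retinoblastoma line established in culture and grown in suspension. The siRNA-untreated array held RNA from untreated Y79 cells, and the siRNA-treated array held RNA from Y79 cells collected 48 h after treatment with siRNA against Ep-CAM, a cell surface adhesion protein whose gene is listed as TACSTD1. By the methods of the study, both cultures had also been exposed to the demethylating agent AZC, while the labels name only the siRNA. The reference is untreated cells and not cells given a scrambled siRNA, so the siRNA sequence and the transfection cannot be told apart. With 1 array per condition there is no replicate error and no test between the conditions.

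ATF4 is a basic leucine zipper transcription factor at the center of the integrated stress response. When a kinase that senses unfolded proteins, amino acid shortage, viral RNA or heme shortage phosphorylates the translation factor eIF2α, most protein synthesis slows while the ATF4 message is translated more, and ATF4 then raises genes for amino acid supply, redox balance and, through DDIT3, cell death. The other arms of the unfolded protein response run through ATF6 and through IRE1, which splices the XBP1 message, and they raise chaperones and degradation factors of the endoplasmic reticulum (ER). An array probe reads the amount of message, and therefore neither the translation of ATF4 nor the splicing of XBP1, and whether an XBP1 probe covers the segment that IRE1 removes was not examined.

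The targeted gene and the cell type were checked first. TACSTD1 gave 15.6 without and 12.0 with the siRNA and was well above background on neither array, so the knockdown could not be seen on these arrays. Of 9 retinoblastoma and photoreceptor lineage markers, 5 were well above background without and 3 with the siRNA, with a summed signal of 315 and 241. CRX (86.8 and 68.7) and OTX2 (70.4 and 52.0) were detected on both arrays, as was RB1 (70.1 and 67.8), which is counted in the set but is not particular to the lineage. NEUROD1, NRL, RCV1 and RXRG were detected on neither. All 4 epithelial, 3 of 4 fibroblast and all 3 blood cell markers were well above background on both arrays, with summed signals of 1193 and 1252, 346 and 288, and 1094 and 1041. Of all transcript spots, 70.4% were well above background without and 68.0% with the siRNA. A marker that passes therefore does not show that such cells were present. Any part of other cell types in the values below was not tested, and in RNA of a whole culture fewer cells of a type and less RNA per cell cannot be told apart.

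The ratios of the 10 genes rest on the following probes, of which the first 30 of 60 bases are shown for ATF4 and for the 3 genes farthest from equal signal. Positions are on hg17, as the array design lists them.
ATF4: gccagatgaccttctgaccacgttggatga
DDIT3: ggaagtgtatcttcatacatcaccacacct
PSAT1: taccattctttccataggtagaagagaaag
DDIT4: tcgtggaggtggtttgtgtatcttactggt
The brighter ATF4 probe lay at chr22:38242375-38242434 (plus strand), the PSAT1 probe at chr9:78174332-78174391 and the DDIT4 probe at chr10:73705369-73705428. The DDIT3 probe was listed at chr12:56197467-56197793 (minus strand), a span of 327 bases for 60 bases of probe, and the PPP1R15A probe at chr19:54069939-54070713, a span of 775 bases, so that their sequence is split on the genome. Exons and UTRs are not given, since no annotation of hg17 was used here.

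None of the 10 genes was called higher or lower in the siRNA-treated cells at 2-fold, that is at a log2 ratio of siRNA-treated over untreated of at least 1 or at most -1 at the brightest probe. Over all 15592 genes with a value, 1.29% were called higher and 0.994% lower by the same rule, or 2.28% in either direction. Among the 10, DDIT3 and PSAT1 had more signal in siRNA-treated cells and DDIT4 had less. The other 6 genes measured on both arrays lay within 0.3 of 0 on the log2 scale, and HERPUD1 was dim on the siRNA-treated array. At the thresholds named in the series text, a ratio above 1.5 or below 0.55, DDIT3 and PSAT1 counted as higher and no member as lower, beside 3.53% and 1.8% of all genes, or 5.33% in either direction. Neither gene passed 1.5 with the authors' processed value, which is the raw median intensity with background not subtracted (log2 ratios of 0.52 and 0.35). Nor did either with raw mean minus local background (0.58 and 0.57) or with normexp background correction (0.02 and 0.36, or 0.56 and 0.41 without 1 spot dimmer than its local background). PSAT1 also did not after subtraction of its neighbors' median (0.54). The median log2 ratio of the 9 genes measured on both arrays was 0.12, with 6 above and 3 below 0, and that of all 14791 genes so measured was -0.03, with 44.0% above 0. ASNS counts above 0 by its brighter probe, while its other probe lay at -0.08 and was dim with the siRNA. Over all 26992 probes measured on both arrays, the log2 ratios had an SD of 0.33 and central 90% limits of -0.57 and 0.44.

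**Figure D1:**
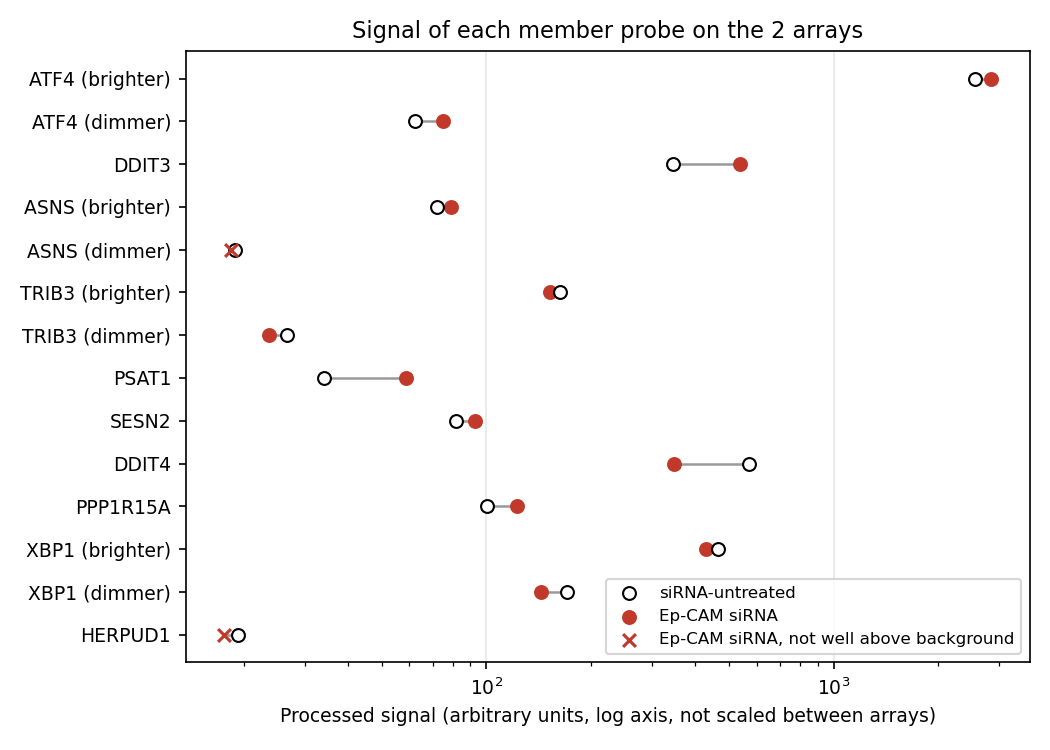
Processed signal of the 14 probes on the untreated (open circles) and siRNA-treated array (red), on a log axis in arbitrary units without scaling between the arrays. The widest gaps are those of DDIT3 and PSAT1, with more signal in siRNA-treated cells, and DDIT4, with less, and red crosses mark the 2 probes not well above background on the siRNA-treated array.

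ATF4 itself gave a signal of 2559.5 without and 2848 with the siRNA at its brighter probe. After each array was divided by its median signal, the log2 ratio was 0.12 with an error of 0.20. That error is the scanner software's for the 2 spots and holds no biological spread. It was close to 0.20 for the bright member probes, so multiples of it are not a measured signal-to-noise. Over repeatedly printed probes in the members' signal range, the median SD of the log2 ratio between spots was 0.15. The dimmer ATF4 probe, at chr22:38243077-38243136, gave 62.2 and 75.01, a log2 ratio of 0.23 with an error of 0.23. The 2 ATF4 probes differed by 0.12, less than the error of 0.31 for that difference. Of all measured probes, 24.5% lay at least as far above 0 as the brighter one. The dimmer probe lay in a corner of the array (rows 355 to 532, columns 43 to 85) where the ratios of all probes had an SD of 0.51 against 0.29 elsewhere.

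DDIT3 encodes CHOP, the transcription factor that ATF4 raises and that favors cell death under lasting ER stress. Its only probe gave 344 without and 536 with the siRNA. The siRNA-treated signal was 1.52-fold higher, a log2 ratio of 0.60 with an error of 0.20, or 2.95 times that error, and 2.72% of measured probes lay as far above 0. The spots within 5 rows and 5 columns of it had a median log2 ratio of -0.01, so that its neighborhood was not shifted. DDIT3 exceeded ATF4 by 0.48 with an error of 0.29.

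PPP1R15A encodes GADD34, the phosphatase subunit that CHOP and ATF4 raise and that removes the phosphate from eIF2α. It gave 101 and 122, a log2 ratio of 0.25 with an error of 0.22. TRIB3 encodes a pseudokinase raised by ATF4 and CHOP that in turn restrains ATF4. Its brighter probe gave 163 and 153, a log2 ratio of -0.13 with an error of 0.21, and its dimmer probe 26.7 and 23.7, a log2 ratio of -0.21 with an error of 0.35. Both TRIB3 ratios were smaller than their errors, and that of PPP1R15A was 1.13 times its error.

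The members that serve amino acid supply are PSAT1, the aminotransferase of serine synthesis, and ASNS, which makes asparagine from aspartate and glutamine. PSAT1 gave 34.0 without and 58.5 with the siRNA, 1.68-fold higher, with a log2 ratio of 0.75 and an error of 0.28. This was the highest log2 ratio of the 10 genes, and 1.65% of measured probes lay as far above 0. The spots around PSAT1 had a median log2 ratio of 0.21, the highest neighborhood value of the 14 probes, and its ratio minus that of its neighbors was 0.54. ASNS gave 72.0 and 79.3 at its brighter probe, a log2 ratio of 0.10 with an error of 0.23. That probe, at chr7:97182787-97182846, was designed on a clone whose description in the files warns that it may be chimeric, and the other ASNS probe lay 56675 bases away at chr7:97126112-97126171. The other probe gave 18.9 and 18.4 and was not well above background in siRNA-treated cells. Its log2 ratio was -0.08 with an error of 0.50. These 2 probes are shown because they do not read the same stretch of the genome:
ASNS brighter probe: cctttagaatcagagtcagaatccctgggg
ASNS dimmer probe: ggactgtgggtagataggggaacaatgaga

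SESN2 and DDIT4 both restrain the growth kinase complex TORC1, SESN2 as a sensor of leucine and DDIT4 (REDD1) through the TSC complex, and both are raised by ATF4 as well as by p53, DDIT4 also by low oxygen. DDIT4 gave 572 without and 348 with the siRNA, 1.69-fold lower. Its log2 ratio was -0.75 with an error of 0.20, or 3.68 times that error, 2.46% of measured probes lay as far below 0, and its neighbors had a median of 0.01. SESN2 gave 81.5 and 92.7, a log2 ratio of 0.15 with an error of 0.23. DDIT3 and DDIT4 thus lay on opposite sides of 0, and their log2 ratios differed by 1.36 with an error of 0.29, while PSAT1 and DDIT4 differed by 1.50 with an error of 0.34. These pairs set the highest members against the lowest, so large differences follow from the choice, and they were not tested.

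XBP1 and HERPUD1 belong to the ER arms. XBP1, whose spliced form is the transcription factor of the IRE1 arm, gave 466 and 431 at its brighter probe, a log2 ratio of -0.15 with an error of 0.20. Its dimmer probe gave 171 and 144, a log2 ratio of -0.28 with an error of 0.21, and it lay in the corner. The XBP1 probes differed by -0.13 (dimmer minus brighter) with an error of 0.29. HERPUD1, an ER membrane protein that brings degradation factors together, gave 19.3 and 17.6 and was well above background only in untreated cells. Its log2 ratio was -0.17, smaller than its error of 0.48. HERPUD1 was close to the lowest signals called well above background (14.9 without and 17.5 with the siRNA), so a change in it could hardly be seen here.

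**Figure D2:**
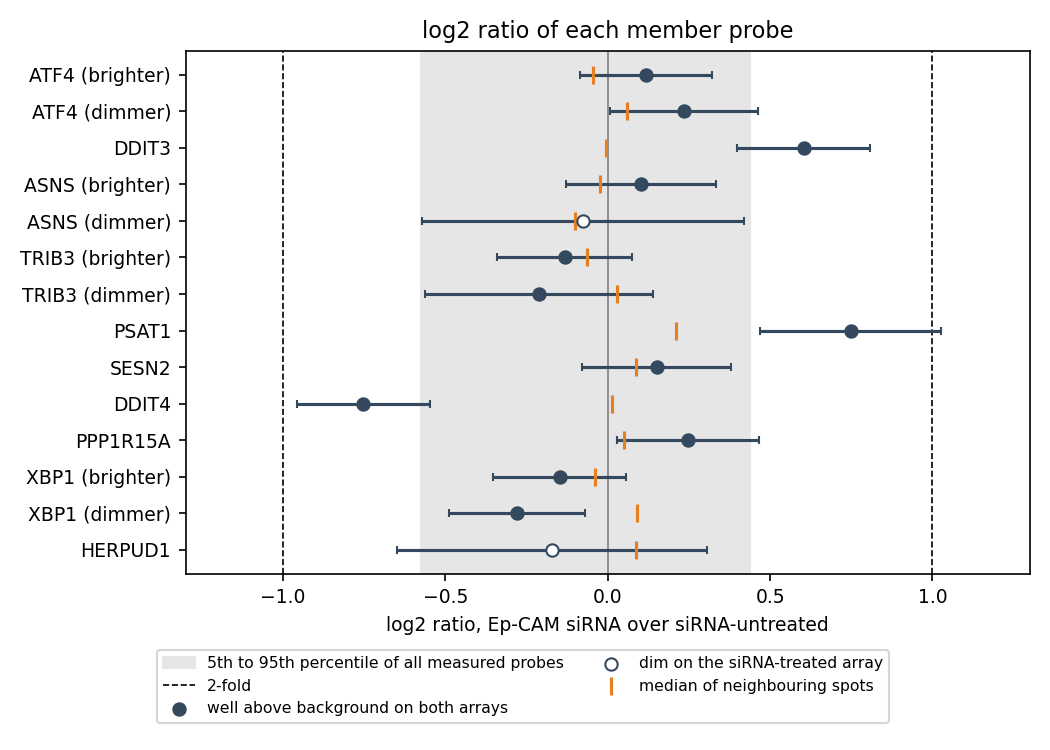
log2 ratio of siRNA-treated over untreated for the 14 probes, with bars for the software's error of the ratio, orange ticks for the median of the neighboring spots, a gray band for the central 90% of all measured probes (-0.57 to 0.44) and dashed lines at 2-fold. DDIT3, PSAT1 and DDIT4 lie outside the band, the other 11 probes lie inside it, and no probe reaches 2-fold.

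The promoters of the 10 genes were searched for the sequences that these factors are known to bind. RefSeq windows of 250 bases before to 50 bases after a start on GRCh38.p14 were found for all 10 genes, 16 windows in all, and both strands were read. TGATGNAA, the core of the C/EBP-ATF response element through which ATF4 acts, occurred in ASNS and HERPUD1 and in 3.62% of all 35116 windows. CCAAT and CCACG with 9 bases of any kind between them, the ER stress response element read by ATF6 and XBP1, occurred in XBP1 and in 0.0769% of windows. ATTGG and CCACG with 1 base of any kind between them, the form named ER stress response element II, occurred in HERPUD1 and in 0.0541%. TGACGTGG, the unfolded protein response element, occurred in no member and in 0.729% of windows. The matches are in capitals below, each on the strand of its gene, and the HERPUD1 match of the first element is on the opposite strand.
ASNS C/EBP-ATF response element: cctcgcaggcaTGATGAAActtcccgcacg
HERPUD1 C/EBP-ATF response element: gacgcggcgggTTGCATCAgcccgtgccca
XBP1 ER stress response element: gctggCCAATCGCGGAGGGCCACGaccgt
HERPUD1 ER stress response element II: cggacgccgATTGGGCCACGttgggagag
These stretches lie at chr7:97872458-97872487 (minus strand), chr16:56931955-56931984 (plus), chr22:28800598-28800626 (minus) and chr16:56932016-56932044 (plus), and their matches begin 68, 176, 52 and 117 bases before the start. The 3 genes with these matches had log2 ratios of 0.10 (ASNS, brighter probe), -0.15 (XBP1) and -0.17 (HERPUD1, dim with the siRNA). The clone behind the brighter ASNS probe may be chimeric, and the other ASNS probe lay at -0.08 and was dim with the siRNA. DDIT3, PSAT1 and DDIT4 had no match in these windows.

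The rest of the pathway was read in 10 lists of 138 other genes, of which 12 were dim on both arrays and 126 had a value, 119 of them measured on both arrays. Of the 126 with a value, 3 were called higher and 2 lower, beside 1.29% and 0.994% of all genes. The median log2 ratio of the 119 was -0.04, with 49 above and 70 below 0. The lists below describe other genes of the pathway and were not tested.

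Among the kinases, phosphatases and subunits of eIF2, 10 were measured on both arrays, 1 was called lower and none higher. The median log2 ratio was -0.34 with 9 of 10 below 0, while 44.0% of all measured genes lay above 0. Under the 11 other settings that gave list medians, it ran from -0.80 (normexp, 4 called lower) to -0.18 (quantile normalization, 0 called lower). The gene called was EIF2S1, which encodes eIF2α itself, with 975 without and 490 with the siRNA, a log2 ratio of -1.03. Its other probe gave 36.4 and 39.0, a log2 ratio of 0.07, so its probes disagreed. The log2 ratio was -0.14 for PPP1CC and -0.33 for PPP1CA, catalytic phosphatase subunits, and -0.60 for EIF2S2, another subunit of eIF2, whose other probe lay at 0.31. PPP1CB, a further catalytic subunit, lay at -0.53 by its brightest probe and at 0.73 and 0.46 by its other measured probes, so the count of 9 below 0 rests on the brightest probes and 3 of those genes had a probe above 0. EIF2AK3, the kinase PERK that answers ER stress, gave 3.41 and 4.06 and was well above background on neither array. Of the ER stress sensors, 5 were measured and none was called, with ATF6 at a log2 ratio of 0.02, its relative ATF6B at 0.24, ERN2 at -0.15 and the 3 probes of ERN1, which encodes IRE1, between -0.16 and -0.10. The fifth sensor gene, MBTPS2, which encodes a protease that releases ATF6, gave 61.4 and 31.9, a log2 ratio of -0.98, at a probe in the corner among spots with a median of -0.27.

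Among 12 other leucine zipper factors, 10 were measured on both arrays, with a median log2 ratio of -0.08. Of the 11 with a value, 2 were called higher and none lower. JDP2, a repressor related to FOS and JUN that can pair with CHOP, gave 486 without and 1176 with the siRNA, a log2 ratio of 1.24 at its only probe, which lay outside the corner. ATF3, a stress-responsive gene downstream of ATF4, gave 24.7 and 121 and was dim without the siRNA. Against that dim signal it was 4.80-fold higher. Its probe lay in the corner among spots with a median log2 ratio of 0.36, and its other probe was dim on both arrays. CEBPB, a C/EBP factor that pairs with ATF4 and CHOP, lay at -0.60 by its brightest probe and at 0.00 by its other probe. CREB3L1, an ER-anchored factor, had a log2 ratio of -0.03.

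Of 18 genes of amino acid synthesis and transport, none was called in either direction, the median log2 ratio was 0.05, and 11 lay above and 7 below 0. The serine pathway partners of PSAT1, PHGDH and PSPH, had log2 ratios of 0.23 and 0.26 at their brightest probes, each with an error of 0.21, against 0.75 for PSAT1. The other PSPH probes lay at 0.02 and 0.09, and SHMT2 of the same list lay at -0.20. Also in the list, the log2 ratio was -0.01 for PYCR1 of proline synthesis and 0.05 both for the transporter chain SLC3A2 and for CBS of cysteine synthesis. Of 11 aminoacyl-tRNA synthetases measured on both arrays, the median log2 ratio was -0.02, with EPRS at -0.27, SARS at 0.15 and KARS at -0.33. The SARS probe lay in the corner among spots with a median of -0.37. GARS was the only synthetase called, with a dim 5.79 without and 51.4 with the siRNA, which is at least 3.35-fold higher, at a single probe in the corner. The spots around GARS had a median log2 ratio of 0.34.

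Of 15 effectors downstream of ATF4 and CHOP, 11 lay above 0 with a median log2 ratio of 0.11, 1 was called lower and none higher. The gene called was GADD45A, a stress gene that ATF4 and p53 raise, with 3421 without and 1679 with the siRNA and a log2 ratio of -1.06. Its probe lay in the corner among spots with a median of -0.35. CHAC1, which degrades glutathione and is raised by ATF4, gave 1343 and 1579, a log2 ratio of 0.20. BBC3, the cell death gene that encodes PUMA, had a log2 ratio of 0.11 at a probe in the corner among spots with a median of -0.25. Its other probes, outside the corner, lay at 0.08 and 0.16. Among 7 sestrins and TORC1 regulators none was called, with a median of 0.04 and values of 0.10 for TRIB2, 0.00 for DEPDC6 and 0.06 for TSC2.

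Most measured genes of the ER chaperone and the ER translocation lists lay below 0, while 44.0% of all measured genes lay above 0. Of 16 chaperones and folding enzymes, 13 lay below 0 with a median log2 ratio of -0.18, and none was called in either direction. HSP90B1, the HSP90 of the ER, had a log2 ratio of -0.10 at its brighter probe and -0.41 at its other probe. MANF (named ARMET on the array) had one of -0.60 and the disulfide isomerase PDIA3 one of -0.64. SDF2L1 (-0.92), PDIA4 (-0.87) and CALR (-0.72) lay farthest below 0 among those measured on both arrays and were picked after their values were seen, as was DNAJC3, which was dim in siRNA-treated cells and at least 1.71-fold lower. HSPA5, which encodes the main ER chaperone BiP, had a log2 ratio of -0.03 at its brighter probe, while its other probe, in the corner, gave 36.0 and 7.75 and was at least 2.11-fold lower. Of 13 genes of ER translocation and secretion, 11 lay below 0 with a median of -0.20, led by SEC61B, a subunit of the translocation channel, at -0.79, with SSR2 at -0.47 and SPCS1 at -0.21. The SSR2 probe lay in the corner among spots with a median of 0.29. Of 14 genes of ER-associated degradation, none was called and the median was -0.03, with VCP at -0.19, SELS at -0.33 and ERLEC1 at 0.09. The VCP probe lay in the corner among spots with a median of -0.26, and its next brightest probe, also in the corner, lay at 0.01. Under the 11 other settings that gave medians for the lists, that of the chaperones ran from -0.50 to -0.12 and that of translocation and secretion from -0.42 to -0.15, while the median of the 10 members ran from -0.11 to 0.16. The lowest value of each came with normexp background correction, where the median of all measured probes was -0.20.

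**Figure D3:**
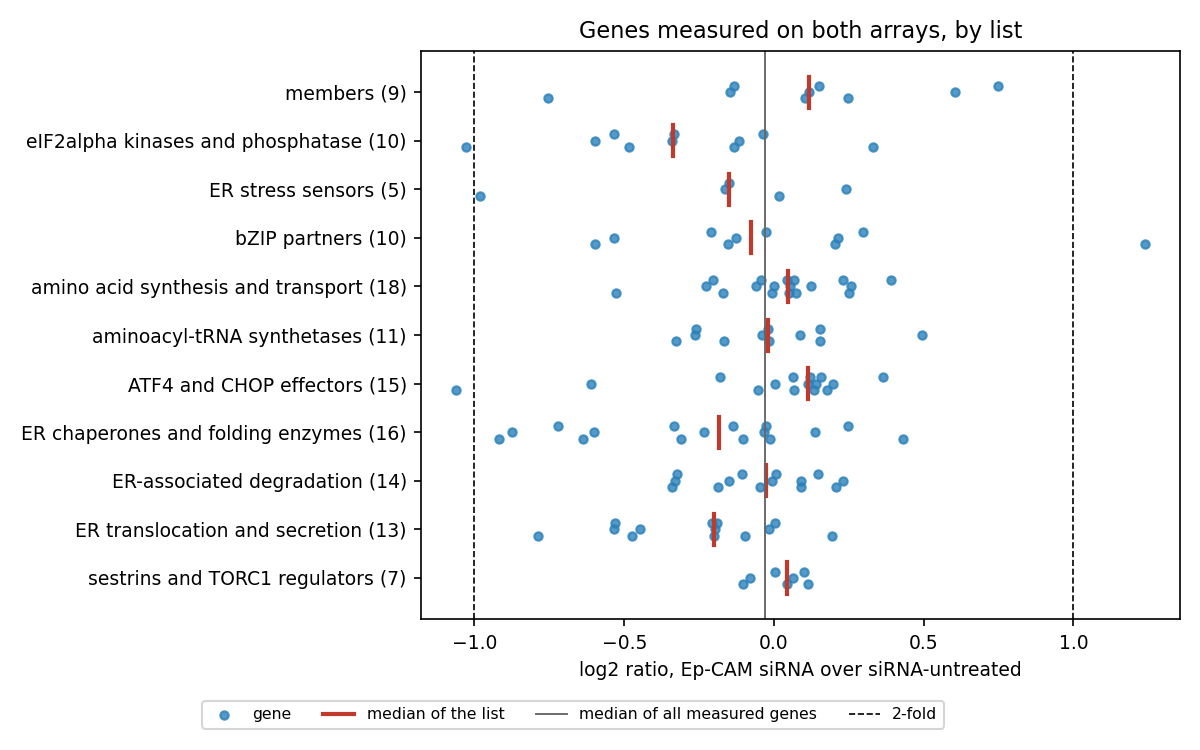
log2 ratio of siRNA-treated over untreated for each gene measured on both arrays, by list with the number of genes in parentheses, red bars for list medians, a gray line for the median of all measured genes (-0.03) and dashed lines at 2-fold. Most ER chaperones and translocation genes lie left of 0, the members spread from -0.75 to 0.75, and JDP2, EIF2S1 and GADD45A lie past 2-fold.

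The 3 members with the largest ratios were followed through the other ways of scaling, correcting and choosing probes. DDIT3 stayed above 0 under all 12, between 0.52 and 0.66 under 11 of them and at 0.02 with normexp background correction. PSAT1 stayed above 0 under all 12, between 0.35 and 0.78, and DDIT4 below 0 under all 12, between -0.79 and -0.69 under 11 and at -1.22 with normexp. ATF4, ASNS (read at its brighter probe) and PPP1R15A changed sign with normexp, and SESN2 changed sign with normexp and with the authors' processed value. TRIB3 and XBP1 changed sign under none. HERPUD1 had no value with normexp. A value with more signal on the array where a probe was dim was dropped, so the sign of HERPUD1 could hardly be followed.

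**Figure D4:**
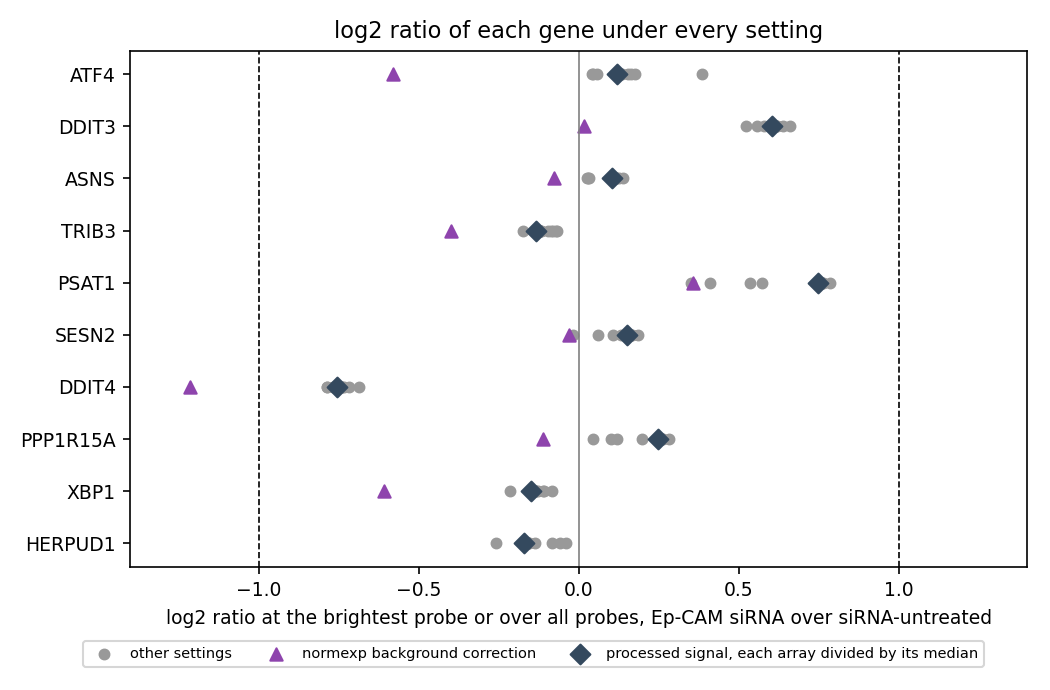
log2 ratio of siRNA-treated over untreated for each of the 10 genes as reported (diamonds), under normexp background correction (purple triangles) and under the other settings (gray circles), with dashed lines at 2-fold. The normexp triangle stands apart to the left for most genes, and the gray circles of DDIT3 and DDIT4 stay close to their diamonds.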

How the data were processed

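Each of the 2 arrays is 1 condition, grouped by its label. Intensity per spot was extracted by the authors with Agilent Feature Extraction, version 9.5.3.1 per the file headers (the series text names another). Processed intensity is background-subtracted and not scaled between arrays. The authors' series table held the raw median intensity of each spot (median 120 and 123 per array), within 1 unit for 100% of 40736 probes printed once, and was used only as an alternative.

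After removal of control and outlier spots, signals were divided by the array's median of non-control spots (48.9 untreated, 50.1 siRNA-treated), spots of a probe were averaged, and log2 was taken. Of 43376 transcript spots, 70.4% and 68.0% were well above background. Where a probe was dim on 1 array, its ratio was taken against the higher of that array's lowest signal well above background and the probe's own signal. The first case gives a bound and the second the plain ratio. A value with more signal on the dim array was dropped. The brightest probe stood for a gene. Over 180 probes printed repeatedly in the members' signal range, the SD of a log2 ratio between spots had a median of 0.15. The call was 2-fold, and the code was tested on simulated data.

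The members and lists were chosen with earlier results of these data known. Named genes were all members, TACSTD1, and from each list the genes past 2-fold and the 3 brightest. A few others were named after their values were seen. Of 138 list genes, 131 matched by name and 7 by synonym. R 4.3.3, limma 3.58.1 and Python 3.11.15 were used. Alternatives were other scalings, background corrections, dim filters, thresholds, probe choices and array positions. Likeness of pattern was not computed, since 2 arrays give 1 difference per gene. Both arrays lay on the same slide and scan.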

Additional observations from a re-analysis of the deposited data

How the results depend on the processing

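With 1 array per condition no array could be left out, and the number of arrays limits every ratio. The median log2 ratio of the members was 0.12 and became -0.11 with normexp background correction, and that of the other pathway genes moved from -0.04 to -0.33. The median of all measured probes moved as well, from -0.03 to -0.20. That fit included 1 spot dimmer than its local background. Without it, an alternative chosen after seeing the data, the members' median was 0.06. Of the members, 0 were called higher, or 2 at a ratio above 1.5, and 0 lower, or 1 (DDIT4) with normexp. Of the other pathway genes, 3 were called higher, which became 1 with the authors' processed value, 1 with probes well above background on both arrays only, 1 (JDP2) without the corner and 0 with normexp. The 2 called lower became 1 with the mean over probes, 1 without scaling, 1 (EIF2S1) without the corner, 0 with quantile normalization, 0 with the neighbors' median subtracted, 4 without a filter on dim probes, 6 at a ratio below 0.55 and 15 with normexp. The scalings moved the median of all probes by at most 0.04. The causes were not tested. No paired analysis was possible because each condition has 1 array.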
